A study of Mus musculus with 6 samples.

Results

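Isolated CTBP2 sites are the places in the genome of cultured macrophages where a CTBP2 peak stood alone. They were taken from the deposited table of 62236 sites, without X and Y, as the sites whose centre lay over 100 kb from the centre of any other site on the same chromosome. The rule used positions and no signal value. It found 679 of 61248 autosomal sites (1.11%), and the other 60569 autosomal sites served as the comparison. CTBP2 was measured by chromatin immunoprecipitation and sequencing (ChIP-seq) with an antibody to CTBP2 in bone marrow-derived macrophages of wildtype male C57BL6/N mice, 6 to 12 weeks old. The marrow cells were grown into macrophages for 6 days in medium with L929 supernatant, then treated for 3 h with PBS as vehicle (3 libraries) or with lipopolysaccharide (LPS) at 100 ng/ml (3 libraries). All 6 libraries share the genotype, the antibody and the double crosslinking. The labels give replicate numbers but not whether marrow was pooled or came from different mice, so every p-value here measures the spread between libraries, which may be technical, and input chromatin was not analysed here.

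CTBP2 is a co-repressor that does not bind DNA itself. It is brought to chromatin by DNA-binding proteins, classically zinc finger factors such as ZEB1 that carry a short CTBP-binding motif, and it assembles histone deacetylases and histone demethylases there. In macrophages, enhancers of inflammatory genes often lie in groups close to each other and to the genes they serve, whereas LPS, the ligand of the receptor TLR4, switches on NF-kB, AP-1 and interferon-regulatory factors that bind them. A site with no neighbour over 100 kb on either side is therefore the opposite arrangement, a single bound element in a wide stretch with no other called peak.

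The table gives site positions in GRCm39 and gene positions in GRCm38, so gene starts were placed on the sites by an offset measured along each chromosome from the sites that were not isolated. Of the 636 isolated sites that could be placed, 152 had their centre within 1 kb of a gene start, and the sequences at such starts can be read from RefSeq promoters (GRCm38.p6). The promoters shown belong to the 3 isolated start sites named by rule that have an entry in that table and to the 4 most isolated other sites within 200 bp of a protein-coding start. They show the sequence around the gene start, and the sequence of the sites themselves was not read. Each runs 5′ to 3′ in the direction of the gene, from 250 bases before to 50 after the start, and capitals mark a match to one of 13 short motifs.
Dsel promoter, chr1:111864869-111865168, minus strand: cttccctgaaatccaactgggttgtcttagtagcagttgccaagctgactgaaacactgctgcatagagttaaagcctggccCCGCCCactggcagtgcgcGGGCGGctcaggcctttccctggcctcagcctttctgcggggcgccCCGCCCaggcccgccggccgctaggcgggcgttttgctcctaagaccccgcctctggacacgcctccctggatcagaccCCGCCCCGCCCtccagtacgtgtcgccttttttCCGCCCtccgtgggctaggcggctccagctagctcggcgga
Rnpc3 promoter, chr3:113630100-113630399, minus strand: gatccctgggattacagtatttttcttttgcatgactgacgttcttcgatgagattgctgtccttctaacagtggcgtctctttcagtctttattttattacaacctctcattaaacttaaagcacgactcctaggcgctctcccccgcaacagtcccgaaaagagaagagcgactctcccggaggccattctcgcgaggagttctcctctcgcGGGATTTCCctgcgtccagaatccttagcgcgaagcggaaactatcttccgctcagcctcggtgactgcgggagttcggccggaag
Rdh14 promoter, chr12:10390530-10390829, plus strand: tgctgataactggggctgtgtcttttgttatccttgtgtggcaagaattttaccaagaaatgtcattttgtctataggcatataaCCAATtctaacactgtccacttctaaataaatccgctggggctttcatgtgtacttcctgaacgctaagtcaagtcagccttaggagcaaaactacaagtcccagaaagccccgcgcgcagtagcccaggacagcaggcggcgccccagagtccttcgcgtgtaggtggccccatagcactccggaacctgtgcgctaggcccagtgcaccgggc
Agmo promoter, chr12:37241389-37241688, plus strand: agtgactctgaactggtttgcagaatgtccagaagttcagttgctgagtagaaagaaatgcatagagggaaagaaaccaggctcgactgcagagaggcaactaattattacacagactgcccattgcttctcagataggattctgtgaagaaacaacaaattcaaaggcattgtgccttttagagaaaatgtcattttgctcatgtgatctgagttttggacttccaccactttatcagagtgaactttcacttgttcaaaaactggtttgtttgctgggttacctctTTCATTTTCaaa
Orc5 promoter, chr5:22550289-22550588, minus strand: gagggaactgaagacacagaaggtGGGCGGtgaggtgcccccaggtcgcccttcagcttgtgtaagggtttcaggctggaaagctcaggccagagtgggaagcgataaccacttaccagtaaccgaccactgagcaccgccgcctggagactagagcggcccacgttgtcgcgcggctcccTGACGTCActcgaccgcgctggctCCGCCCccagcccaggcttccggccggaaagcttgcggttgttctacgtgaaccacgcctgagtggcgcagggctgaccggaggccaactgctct
Ifi44 promoter, chr3:151749861-151750160, minus strand: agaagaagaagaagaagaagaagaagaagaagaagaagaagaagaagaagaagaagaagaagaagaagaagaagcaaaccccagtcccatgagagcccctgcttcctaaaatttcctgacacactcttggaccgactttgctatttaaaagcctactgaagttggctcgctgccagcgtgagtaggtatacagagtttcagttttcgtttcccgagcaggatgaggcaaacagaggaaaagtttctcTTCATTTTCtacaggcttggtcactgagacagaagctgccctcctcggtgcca
Fat3 promoter, chr9:16502005-16502304, minus strand: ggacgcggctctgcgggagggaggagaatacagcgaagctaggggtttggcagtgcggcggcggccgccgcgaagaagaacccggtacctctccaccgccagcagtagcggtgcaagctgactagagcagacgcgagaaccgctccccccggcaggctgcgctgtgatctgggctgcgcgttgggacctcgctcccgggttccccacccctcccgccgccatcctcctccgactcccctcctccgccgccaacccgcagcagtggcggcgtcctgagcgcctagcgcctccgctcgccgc
The capitals in Dsel are 6 GC boxes (GGGCGG or its complement), one pair of them overlapping, and those in Orc5 are 2 GC boxes and a CREB element (TGACGTCA). Rnpc3 holds an NF-kB match (GGGANTTCC), Rdh14 a CCAAT box (CCAAT), and Ifi44 and Agmo each a match to an element of interferon-regulatory and STAT factors (GAAANNGAA), read on the strand opposite to the gene. None of the 13 motifs is in the Fat3 window. The centre of the Fat3 site lay 784 bp from the start, outside that window, so the window does not describe the site. A match describes letters only and is not evidence that a factor binds.

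The promoters at lone sites had a GC content near that of promoters at sites with neighbours. In all, 170 RefSeq promoters had an isolated site within 1 kb of the start, with a median GC content of 60.8% and a median observed to expected CpG ratio of 0.76. The 12309 promoters with another site within 1 kb had a median of 60.7% and a ratio of 0.76, and all 31387 promoters searched had 53.0% and 0.39. Dsel (66.0% GC), Orc5 (64.0%) and Fat3 (71.3%) are of the GC-rich kind, and Agmo (39.7%, ratio 0.09) is not. Both strands were searched for each motif. The GC box was in 61.2% of the promoters at isolated sites, in 61.4% of those at other sites and in 36.0% of all promoters. The CCAAT box, bound by NF-Y, was in 45.9% of the promoters at isolated sites, against 36.4% and 37.3%. The ETS promoter element (CCGGAAGT) was in 6.47%, 8.25% and 3.95%. The core motif of PU.1 (GAGGAAGT), the factor that sets macrophage identity, was in 2.94% of the promoters at isolated sites, 3.66% of those at other sites and 3.25% of all. The AP-1 motif (TGANTCA) was in 5.88%, 5.60% and 7.85%, and the NF-kB motif in 2.35%, 2.27% and 1.71%. These shares count promoters, which are not replicates, and have no test.

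Isolated sites lay mostly at a gene start or over 10 kb from one. The low share in between is partly set by the rule. A site 1 to 10 kb from a start that carries another site cannot be isolated. Of 4116 gene starts held out from the placing fit, 68.7% had a site that was not isolated within 500 bp. These starts are of genes that the deposited table names for a site. Of all 20077 RefSeq protein-coding promoters searched, 10123 had a site that was not isolated within 1 kb. The 152 at a start (within 1 kb) were 23.9% of the 636 that could be placed (95% exact binomial interval 20.6% to 27.4%, which covers counting error only), and 112 of them lay within 200 bp. Only 52 (8.18%) lay 1 to 10 kb from a start, 238 (37.4%) lay 10 to 100 kb away and 194 (30.5%) over 100 kb away. Among the 58861 other autosomal sites that could be placed, the shares were 17.5%, 28.3%, 49.7% and 4.49% in the same order. The median distance was 36.5 kb for isolated sites and 11.9 kb for the others. Inside the body of a protein-coding gene lay 45.0% of isolated sites and 58.8% of the others. Of the start sites, 105 lay at a RefSeq protein-coding gene, 24 at a long non-coding RNA (lncRNA) and 23 at a gene placed from the deposited table alone.

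**Figure D1:**
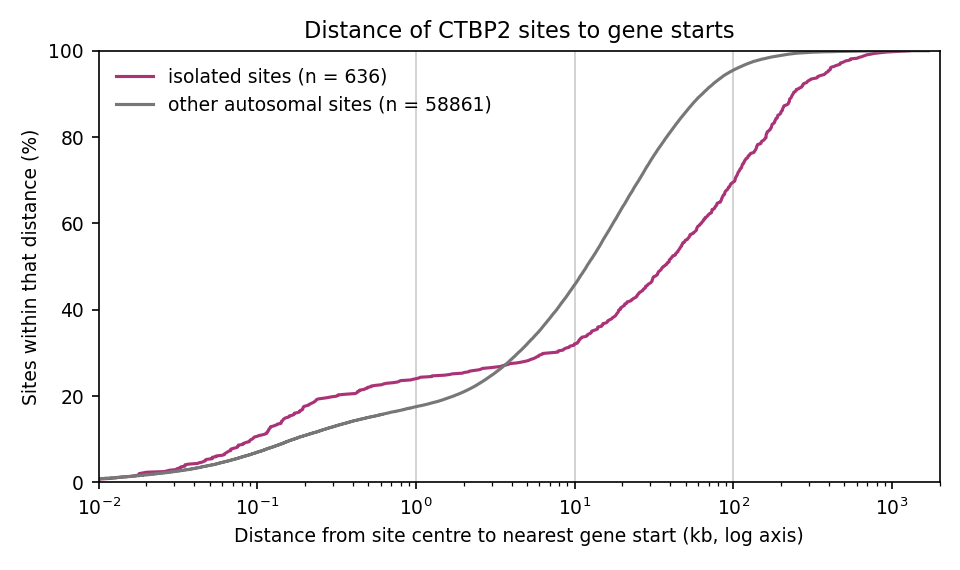
Share of sites (%) within a given distance (kb, log axis) of the nearest placed gene start, for 636 isolated and 58861 other autosomal sites; the isolated curve is higher within 1 kb (23.9% against 17.5%), nearly flat from 1 to 10 kb, and reaches 100 kb with 30.5% of its sites still to come.

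The distance to the next site was wide. It ran from 100.3 kb to 4275 kb, with a median of 164.9 kb. It was over 500 kb for 65 sites and over 1 Mb for 20, and 49 pairs of isolated sites were each other's nearest neighbour. Chromosome 18 had the largest share of its sites isolated (43 of 1751, 2.46%) and chromosome 11 the smallest (19 of 4739, 0.40%). The 5 sites just inside the threshold (100.3 to 100.5 kb) had mean values of 25.5 to 145.3, and the 5 just outside it (99.7 to 100.0 kb) had 31.3 to 65.1.

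The deposited value is a normalised read signal per site and library, and its unit is not stated. Isolated sites had a median value of 33.8, 35.3 and 61.8 in vehicle libraries 1, 2 and 3, and of 33.6, 43.5 and 46.9 in LPS libraries 1, 2 and 3. The other autosomal sites had medians of 35.5, 37.3 and 73.0, and of 37.1, 48.8 and 61.0. Vehicle library 3 had the highest values in both classes, and its smallest step between values was also the largest (1.87, against 0.68 to 1.17 in the other 5 libraries). If a step is 1 read, an isolated site at the median held 33 to 52 reads in a library, and 3243257 to 4553185 reads fell in sites.

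Within every library the typical isolated site was weaker than the typical other site. The median of log2(value + 1) over isolated sites minus that over other sites was -0.07, -0.08 and -0.24 in vehicle libraries 1, 2 and 3, and -0.14, -0.16 and -0.37 in LPS libraries 1, 2 and 3. The mean difference was -0.18 ± 0.11 (SD, n = 6 libraries), below 0 in 6 of 6 libraries (exact two-sided sign-flip test over libraries, p = 0.03125, the smallest that 6 libraries allow). Replicate 3 of each group showed the largest difference. All libraries measure the same sites, so the test asks whether the difference repeats between libraries. It does not test whether isolation goes with a lower level. Against clustered sites, the 46597 that have another centre within 10 kb, the mean difference was -0.19 ± 0.13 (SD, n = 6; 6 of 6 below 0; exact p = 0.03125). With isolation set at over 200 kb (257 sites) it was -0.10 against the other sites, below 0 in 4 of 6 libraries (exact p = 0.125), so the difference did not hold at that distance. A low level was not particular to isolated sites. The median vehicle mean was 38.5 with a neighbour under 2 kb away, 51.4 at 2 to 5 kb and 44.6 at 50 to 100 kb. It was 41.0 at 100 to 200 kb, 47.2 at 200 to 500 kb and 43.8 beyond.

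At gene starts the difference from sites with neighbours was lower than over 10 kb from any start in each of the 6 libraries. At starts, isolated sites had medians of 46.8, 48.8 and 95.5 in the vehicle libraries and 46.6, 61.3 and 69.2 in the LPS libraries, and the 10322 other start sites had 57.2, 60.4 and 140.4, and 62.1, 85.3 and 105.5. The mean difference of log2 medians was -0.44 ± 0.13 (SD, n = 6; 6 of 6 below 0; exact p = 0.03125). Over 10 kb from any start, 432 isolated sites differed from 31907 others by -0.17 ± 0.13 (SD, n = 6; 6 of 6 below 0; exact p = 0.03125). Among the isolated sites themselves, those at starts were stronger than those over 10 kb away by 0.64 ± 0.11 (SD, n = 6), in 6 of 6 libraries (exact p = 0.03125). All 5 level comparisons of this family had a Benjamini-Hochberg adjusted p of 0.03125.

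**Figure D2:**
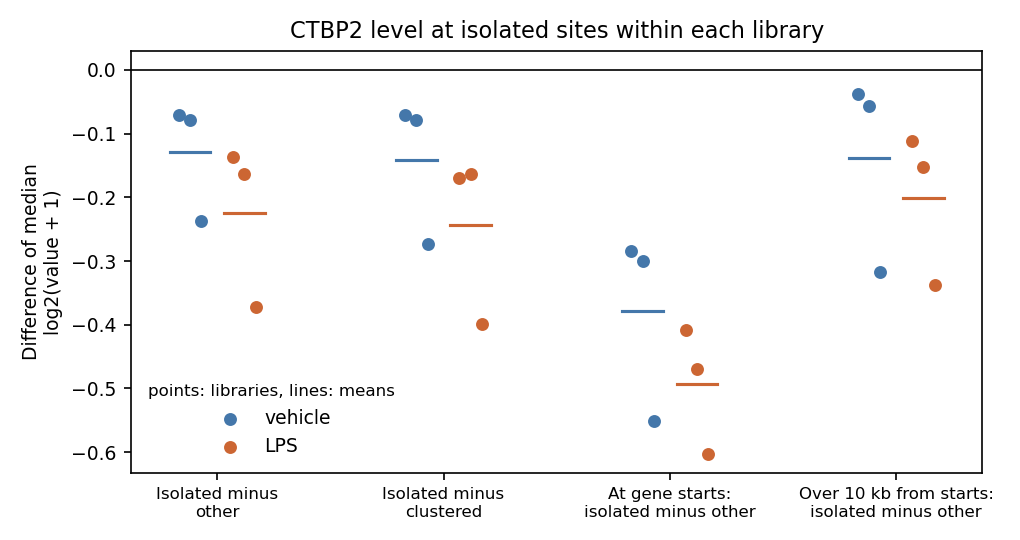
Difference of the median log2(value + 1) between isolated and comparison sites in each library (points; 3 vehicle, 3 LPS) with group means (lines), for 4 comparisons; all points lie below 0, lowest at gene starts (mean -0.44).

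A handful of isolated sites were far above the rest. The site at chr2:98497031-98498031 (GRCm39) had values of 64731, 51230 and 95506 in the vehicle libraries and 65074, 58494 and 66902 in the LPS libraries. It lay 43.3 kb from the start of the predicted gene Gm33780 and 2349 kb from the nearest coding start, that of the synaptic adhesion gene Lrrc4c, and no other site was within 2953 kb. This single site carried 60.6% to 65.7% of the summed signal of all isolated sites in each library, and was 1344 to 1934 times the median isolated site. Its change with LPS was -0.10 (log2, SE 0.16), with a limma adjusted p of 1.00. The groups overlapped, and without vehicle replicate 3 the change was 0.14. The second, at chr17:40156035-40157035, 52.8 kb from AY036118, had 6232, 3842 and 4181 in vehicle and 5793, 2926 and 2577 in LPS libraries, and the next, at chr3:5925219-5926219, had 776, 471 and 640, and 625, 338 and 427. Because input was not analysed here, antibody signal and signal that input would also show cannot be told apart at these sites.

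Below these 3, no isolated site exceeded 352 in any library. Of the 10 highest, only that of Rev3l, the catalytic subunit of DNA polymerase zeta, lay at a gene start (478 bp; chr10:39607040-39608040), with 138, 130 and 283 in vehicle and 170, 226 and 263 in LPS libraries. The groups overlapped (log2 change 0.33, SE 0.43, limma adjusted p = 0.992). Other strong start sites, chosen after their values were seen, were those of Rfx3, a factor of cilium genes, with 123, 125 and 255 in vehicle and 98.3, 147 and 183 in LPS, and of the zinc finger gene Zfp64, with 149, 121 and 212, and 121, 145 and 158.

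**Figure D3:**
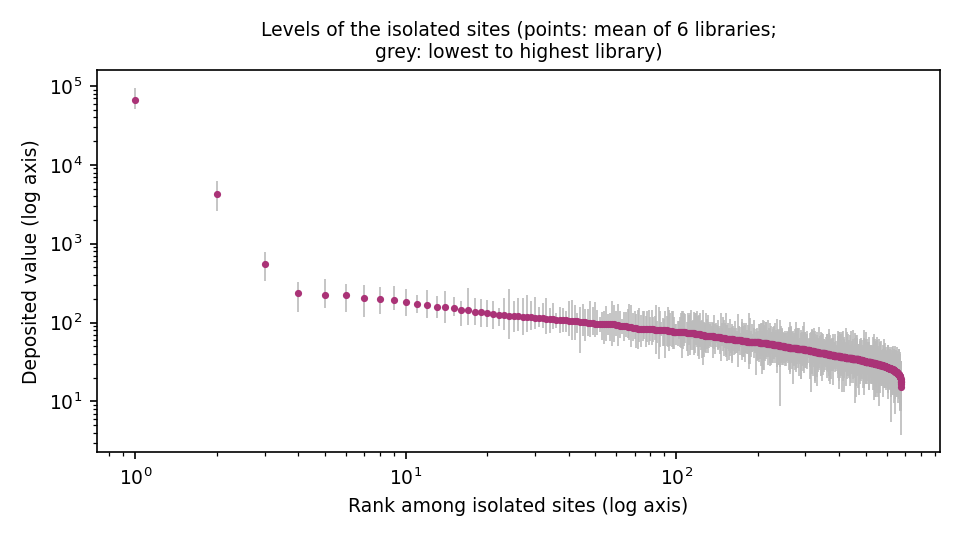
Deposited value (log axis) of the 679 isolated sites by rank (log axis), as the mean of 6 libraries (points) with the range from lowest to highest library (grey); 3 sites stand above the rest, and all others stay at or below 352 in every library.

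The comparison of LPS with vehicle asks whether a lone site gains or loses CTBP2 when macrophages meet a bacterial signal. By limma over all 62236 sites on log2(value + 1), 3 of 679 isolated sites (0.44%) rose with an adjusted p under 0.05, against 1.89% of all sites, and 0 fell, against 0.0482% of all. At an unadjusted p under 0.05, 37 isolated sites were higher (5.45%; all sites 8.08%) and 29 lower (4.27%; all sites 1.82%). The counts moved with scaling. On values centred on each library's median, which lowers every log2 change by the same small amount, 65 isolated sites were higher (9.57%; all sites 16.1%) and 104 lower (15.3%; all sites 13.4%). By the FDR of the authors' deposited table, 18 were higher (all sites 4.01%) and 5 lower (all sites 0.37%). Without vehicle replicate 3, limma on the deposited values called 56 higher (8.25%) and 4 lower (0.59%). The share over all sites is not given here for that fit, so these counts have no background beside them.

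The site that rose most lay at chr7:112098448-112099448 inside Parva, the gene of the focal adhesion protein alpha-parvin, 35.9 kb from the start of its antisense lncRNA Parvaos; the deposited table names Usp47. Its values were 8.66, 12.2 and 15.0 in vehicle libraries 1, 2 and 3 and 68.2, 94.1 and 107 in LPS libraries 1, 2 and 3. Every LPS library stood far above every vehicle library. The change was 2.81 on the log2 scale (SE 0.47, limma adjusted p = 2.31e-06), and it passed under all 18 other settings that were run. The site at chr10:12174247-12175247 lay inside no protein-coding gene, 240.2 kb from the start of the lncRNA Gm40601 (the table names Utrn). Its values were 19.1, 27.8 and 13.1 in vehicle and 55.2, 71.0 and 75.0 in LPS libraries. Its groups did not overlap (log2 change 1.75, SE 0.46, limma adjusted p = 0.0119). The site at chr1:152967397-152968397 lay inside Nmnat2, an enzyme of NAD synthesis, 137.0 kb from its start, with 9.53, 18.3 and 18.7 in vehicle and 31.9, 54.2 and 73.9 in LPS libraries. Those groups did not overlap either (log2 change 1.69, SE 0.49, limma adjusted p = 0.0362). These last 2 calls were lost when vehicle replicate 1 or 2 or LPS replicate 2 or 3 was left out, with limma adjusted p from 0.0792 to 0.446 for the first (log2 changes 1.66 to 2.01) and 0.219 to 0.661 for the second (1.40 to 1.84). The first was also lost on median-centred values without vehicle replicate 1 or any 1 LPS replicate (limma adjusted p 0.0661 to 0.109).

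The next 7 in order of adjusted p did not pass (limma adjusted p 0.0643 to 0.134; log2 changes 1.37 to 1.73). The closest lay inside Slco5a1, an organic anion transporter gene (chr1:13062134-13063134). The nearest placed start was that of the nuclear receptor coactivator Ncoa2, 381.7 kb away, and no start of Slco5a1 itself was placed nearer. Values at this site were 40.7, 49.5 and 73.0 in vehicle and 153, 157 and 143 in LPS libraries (log2 change 1.50, SE 0.47, limma adjusted p = 0.0643). The groups stood well apart and the LPS libraries were tight. A site 181.9 kb from Foxp1, a forkhead transcription factor gene (chr6:98822916-98823916), had 16.5, 17.6 and 30.0 in vehicle and 45.7, 69.3 and 55.1 in LPS libraries, and a site inside the lipid transporter gene Abca13 (chr11:9614240-9615240) had 17.3, 16.3 and 11.2, and 46.6, 47.1 and 42.2. Neither pair of groups overlapped (limma adjusted p = 0.0937 and 0.0842). The others lay inside Kit, the receptor of stem cell factor, inside Inpp4b, a phosphoinositide phosphatase, and in no coding gene nearest to Gm46220 and Ofcc1. The offset at the Ofcc1 site is uncertain by 30.5 kb. All 10 of these sites were over 10 kb from any placed start, and all 10 passed on median-centred values, as did 16.1% of all sites. The 10 were picked by smallest p in these same libraries, so this is not separate support for a gain.

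No isolated site fell by limma on the deposited values. The lowest adjusted p was that of the site at chr9:43856183-43857183, 28.8 kb from the lncRNA Gm30373 (the table names Rnf26), with 47.6, 61.7 and 103 in vehicle and 29.3, 24.0 and 22.3 in LPS libraries. The groups did not overlap (log2 change -1.39, SE 0.45, limma adjusted p = 0.0843). The next, 416.7 kb from Rprm, the gene of a p53-induced inhibitor of the cell cycle (chr2:53558373-53559373), had 96.1, 97.0 and 159 in vehicle and 35.4, 34.6 and 64.5 in LPS libraries (log2 change -1.39, SE 0.47, limma adjusted p = 0.105). The site near the start of Fat3, an atypical cadherin whose GC-rich promoter is printed above (chr9:16412070-16413070, 784 bp from the start), had 46.8, 49.5 and 101 in vehicle and 25.0, 23.1 and 28.1 in LPS libraries. Here too every LPS library was below every vehicle library (log2 change -1.25, SE 0.45, limma adjusted p = 0.157). The other 7 lay inside Ptprk, a receptor tyrosine phosphatase, inside Plxna4, a semaphorin receptor, or in no coding gene, among them sites nearest to Kctd8 and Scgb2b26. The log2 changes of the 10 sites ran from -1.39 to -1.07, with limma adjusted p between 0.0843 and 0.311. In all 10 the groups did not overlap, and on median-centred values all 10 passed, with limma adjusted p from 9.18e-08 to 0.000887. The 10 were picked by smallest p in these same libraries, so neither count is separate support for a loss. Over all sites, 5.36% had every LPS library below every vehicle library, and 13.4% were called lower on median-centred values.

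**Figure D4:**
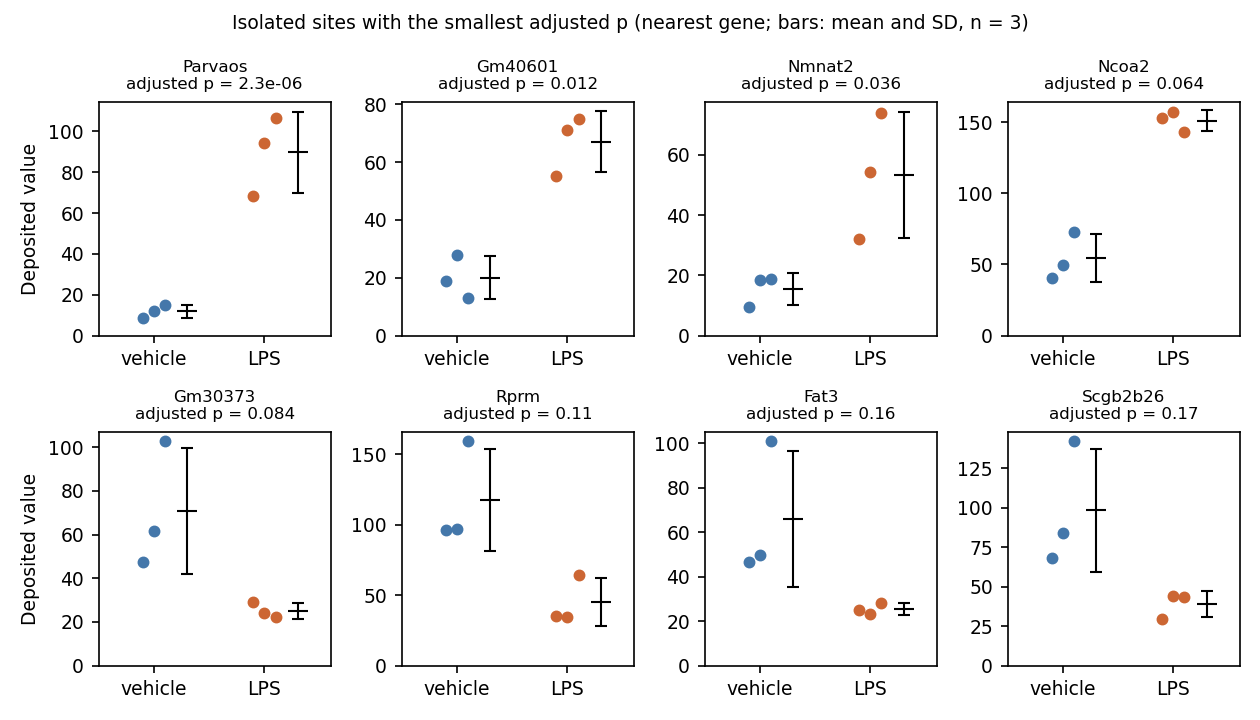
Deposited value in each library (points; vehicle blue, LPS orange; bars, mean and SD, n = 3) at the 4 isolated sites with the smallest limma adjusted p among those higher in LPS (top) and among those lower (bottom), titled by the gene with the nearest start; groups do not overlap in any panel, and only the first 3 passed 0.05.

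Counted without a model, 71 isolated sites had every LPS library above every vehicle library (10.5%; all sites 9.01%), and 67 had every LPS library below (9.87%; all sites 5.36%). After each library was scaled to its median over all sites, these were 99 (14.6%; all sites 21.6%) and 163 (24.0%; all sites 20.6%). The median log2 change of isolated sites was 0.01, against 0.04 over all sites, with 10th and 90th percentiles of -0.63 and 0.72 against -0.53 and 0.84. A shift of isolated sites as a class against the others was not detected. The isolated minus other difference averaged -0.13 ± 0.09 over the vehicle libraries and -0.22 ± 0.13 over the LPS libraries (SD, n = 3 each), a change of -0.10 (exact permutation test, two-sided, p = 0.5; 3 against 3 cannot go below 0.1).

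The share of sites called higher was smaller the further the next site lay, beyond 2 to 5 kb. On median-centred values it was 17.6% of the 24776 sites with a neighbour at 2 to 5 kb, 14.2% at 10 to 20 kb, 12.0% at 50 to 100 kb, 10.7% at 100 to 200 kb, 8.33% at 200 to 500 kb and 6.15% of the 65 sites beyond 500 kb. The share called lower showed no such order and stayed between 11.2% and 16.7% over the 9 distance classes. On the values as deposited, the share called higher went from 2.24% at 2 to 5 kb to 0.71% at 100 to 200 kb and was 0 of 192 and 0 of 65 beyond. Level differs with distance as well, so the autosomal sites were also split into 3 equal groups by mean value. In the highest group (mean over 66.5), 5.11% of 137 isolated sites and 15.9% of 20279 others were called higher on median-centred values, and 12.4% and 16.1% lower. In the middle group, 11.1% of 244 isolated sites and 16.5% of others were higher, and 18.4% and 16.6% lower. In the lowest group (mean up to 38.2), 10.4% of 298 isolated sites and 16.1% of others were higher, and 14.1% and 7.58% lower. The share of sites at a gene start differs with distance too. It was 15.4% at 2 to 5 kb, 28.4% at 50 to 100 kb, 21.1% at 100 to 200 kb and 29.1% at 200 to 500 kb, and the distance classes were not split by it.

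**Figure D5:**
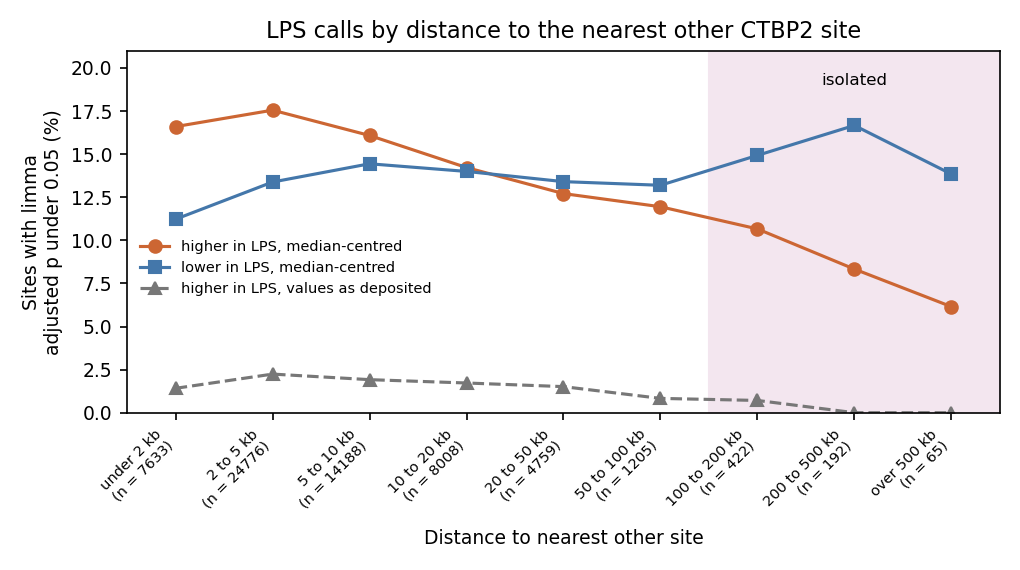
Share of autosomal sites (%) with a limma adjusted p under 0.05 by distance to the nearest other site, with the number of sites per class and the isolated classes shaded; on median-centred values the share higher in LPS goes from 17.6% at 2 to 5 kb to 6.15% beyond 500 kb, while the share lower stays between 11.2% and 16.7%.

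Isolated sites at gene starts had a share of calls near that of other start sites on the deposited values. Of the 152, 0 were called in either direction by limma, against 0.736% higher and 0.00969% lower of the 10322 other start sites. A count of 0 of 152 allows up to 2.40% (exact binomial, counting error only). At an unadjusted p under 0.05, 2 (1.32%) were higher and 1 (0.66%) lower, against 3.2% and 0.50% of other start sites. After median-centring 7 were higher (4.61%) and 8 lower (5.26%), against 10.2% and 6.30% of other start sites. Over 10 kb from any start, 3 of 432 isolated sites (0.69%) were higher on the deposited values, against 2.17% of the 31907 others. There were 51 higher (11.8%) and 83 lower (19.2%) on median-centred values, against 17.7% and 15.8% of other such sites. Among the start sites that passed on median-centred values but not on the deposited ones by limma were those of Tmem132e, a transmembrane protein gene, and Irx3, a homeobox gene, chosen here after their values were seen. Tmem132e had 10.4, 11.5 and 7.49 in vehicle and 25.9, 40.0 and 31.7 in LPS libraries, with no overlap (median-centred log2 change 1.57, limma adjusted p = 0.00382). Irx3 had 21.6, 16.96 and 15.0, and 26.7, 42.6 and 42.2, again with no overlap (0.94, limma adjusted p = 0.0222). Agmo, an ether lipid enzyme whose promoter is printed above, had 44.2, 50.9 and 107 in vehicle and 35.4, 42.6 and 59.8 in LPS libraries. Its groups overlapped as deposited, and on median-centred values its site was lower (-0.52, limma adjusted p = 0.0212).

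The most isolated site of all was the promoter of Dsel, an enzyme of dermatan sulfate synthesis (chr1:111792016-111793016, 102 bp from the start, 4275 kb from the next site). Its values were 67.6, 58.3 and 103 in vehicle and 95.8, 129 and 149 in LPS libraries. Groups overlapped by vehicle library 3 alone (log2 change 0.72, SE 0.47, limma adjusted p = 0.733; median-centred 0.66, limma adjusted p = 0.00133). After the chr2 site described above came a site inside the neural adhesion gene Ncam2 (chr16:81234043-81235043, 2818 kb from the next), with 86.6, 96.3 and 142 in vehicle and 69.0, 83.5 and 104 in LPS libraries. Sites in stretches nearest to Lrfn5 and Tecrl followed, 2775 and 2119 kb from the next site, and were weak, at 19.7 to 38.7 and 15.1 to 34.0 over the libraries. Rnpc3, which encodes a protein of the minor spliceosome (chr3:113423184-113424184, 1909 kb from the next site), had 72.8, 62.4 and 266 in vehicle and 75.0, 105 and 154 in LPS libraries, so vehicle library 3 stood above all others. Rdh14, a retinol dehydrogenase (chr12:10440363-10441363), had 73.6, 96.3 and 157, and 95.8, 98.6 and 134. Orc5, a subunit of the origin recognition complex (chr5:22754842-22755842), had 60.6, 57.0 and 140, and 46.6, 67.5 and 78.5. In Rnpc3, Rdh14 and Orc5 the groups overlapped.

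Few isolated sites were nearest to genes of the LPS response or of macrophage identity, and with 1.11% of all autosomal sites isolated, lists of this size would hold few. None of the 192 autosomal sites nearest to NF-kB pathway genes, none of the 281 nearest to macrophage identity genes and none of the 39 nearest to housekeeping genes was isolated. Of 202 sites nearest to inflammatory mediators 1 was isolated, and of 147 nearest to interferon-response genes 1. The first lay 249.6 kb from Inhba, which encodes an activin subunit (chr13:16435504-16436504), with 39.0, 45.5 and 50.5 in vehicle and 52.6, 60.4 and 80.9 in LPS libraries. These groups did not overlap, but the change did not pass (log2 change 0.50, SE 0.46, limma adjusted p = 0.927). The second was at the promoter of Ifi44, an interferon-induced gene (chr3:151455092-151456092, 68 bp from the start), with 26.0, 20.4 and 30.0 in vehicle and 24.1, 43.5 and 63.3 in LPS libraries. LPS library 1 lay among the vehicle libraries (log2 change 0.67, SE 0.47, limma adjusted p = 0.781).

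Genes of development and of the nervous system were the other end. Of the 44 sites nearest to neuronal adhesion and synapse genes, 5 (11.4%) were isolated, nearest to Dlgap1, Lrfn5, Ncam2, Sema3d and Slit2. Of the 158 nearest to developmental transcription factors, 11 (6.96%) were, nearest to Dach1, Foxp1, Irx3, Mecom, Meis1, Pax2, Pbx3, Satb1, Sox6 and Tbx20, against 1.11% of all autosomal sites. The gene is that of the nearest placed start at any distance, here 237.0 kb for Ncam2, 339.5 kb for Sema3d and 471.3 kb for Lrfn5. Genes in wide stretches with few starts and sites can collect isolated sites by this rule alone. How far gene spacing accounts for these shares was not tested. Of the 192 nearest to genes of the CTBP co-repressor complex and its DNA-binding partners, 4 (2.08%) were isolated, nearest to Mecom, Sox6 and Zfp516. The strongest site of each lay 21.4, 185.5 and 511.3 kb from the start. None of the isolated sites of these lists was called on the deposited values. On median-centred values the developmental sites of Foxp1 and Irx3 were higher. That of Sox6, which the developmental and CTBP lists share, was lower. Over all sites 16.1% were higher and 13.4% lower on those values, so these few calls are near the background. Mecom and Sox6 encode factors known to bind CTBP proteins. The Mecom site (chr3:30045467-30046467, inside the gene) had 103, 99.7 and 176 in vehicle and 86.3, 99.5 and 116 in LPS libraries, which overlapped (log2 change -0.28, SE 0.46, limma adjusted p = 1.00). The Sox6 site (chr7:115214768-115215768, inside the gene) had 35.5, 30.5 and 88.0, and 25.0, 25.8 and 44.5, with overlap (-0.56, SE 0.45, limma adjusted p = 0.865; median-centred -0.63, limma adjusted p = 0.0225). The medians of log2 change were 0.09 for the neuronal list and -0.19 for the developmental list, beside 0.04 for all sites.

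The labelled cell type was checked on sites at gene starts, which show binding and not expression. Of 7 macrophage markers with a placed start, 5 had a CTBP2 site within 1 kb of it (Cebpa, Adgre1, Itgam, Cd68 and Mertk). Spi1, Csf1r, Cd14 and Lyz2, also among the 9 macrophage markers listed, had no such site or no placed start. A site was also at 1 of 5 neutrophil, 0 of 4 lymphocyte and 1 of 3 erythroid or stromal markers. None of these genes was the nearest to an isolated site. Of all 20077 RefSeq protein-coding promoters searched, 10123 had a site that was not isolated within 1 kb, so these few markers do not settle the cell type. Reads alone do not tell fewer bound cells from less CTBP2 per cell.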

How the data were processed

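CTBP2 ChIP-seq was analysed from 1 deposited table of 62236 sites in 3 vehicle and 3 LPS libraries. Its signal columns hold the authors' normalised value per site and library, on a scale whose origin the labels leave unstated. The deposited log2 fold, p-value and FDR columns are the authors' own. Per the submitters' processing notes, the tools included BWA 0.7.17, MACS3 3.0.0a5 and DiffBind 3.16, and the builds mm39, GRCm39 and mm10. How replicates entered the peak calling: not given in the sources used here. No count model was used, because the signal values are not counts.

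Values were taken as log2(value + 1), with no filter, and tested with limma 3.58.1 (R 4.3.3, trend and robust) over all sites with Benjamini-Hochberg adjustment, after a check on simulated data. Levels were compared within libraries by exact sign flips and between groups by exact permutation (scipy 1.17.1). Gene starts (31396 from RefSeq GRCm38.p6, 1464 from the table) were placed by a shift per stretch, picked by dynamic programming on genes of the table and non-isolated sites (a grid of 250 bp out to 1 Mb either way, refined to 50 bp; 105 stretches, median absolute shift 116 kb). Of 4116 starts held out from the fit, 68.7% had a site within 500 bp, against 9.38% with no shift and 8.24% with the shift reversed. For isolated sites within 1 kb of a start the shares were 23.9%, 3.46% and 3.77%. The shift was uncertain by over 10 kb at 11 isolated sites. Every start distance refers to these placed starts, so a gene without one could not be the nearest. The gene named by the table was that at the placed start for 107 isolated sites (16.8%). Chromosome 18 was left out of the start comparisons, and genes there are those of the table. The planned reading of sequence at the sites themselves was not run, since no GRCm39 genome was used here.

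The named sites were, among isolated sites, the 10 higher and 10 lower by smallest adjusted p (1 per gene), the 10 with the highest mean, the 5 most isolated, and up to 2 per gene list with the highest mean; not every one is described. The 11 gene lists, the members and the tests were chosen with earlier results of these data known. The neutrophil, lymphocyte and erythroid or stromal lists had 0 isolated sites of 28, 18 and 24. Alternatives were the scaling, the pseudocount, a filter on low values, a replicate block, each library left out, another threshold, other isolation distances and the deposited FDR.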

Additional observations from a re-analysis of the deposited data

How the results depend on the processing

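The counts of LPS calls at isolated sites depended on the processing. The sign of the mean level difference did not, though its sign in single libraries did. The share of isolated sites called higher was 0.44% by limma on the deposited values. It was 9.57% on median-centred values, 8.84% on quantile normalised values, 0.15% at a threshold of 0.01, 0.69% for 1884 sites isolated by over 50 kb, 0 for 257 isolated by over 200 kb and 2.65% by the FDR of the authors' deposited table. The share called lower was 0, and it was 15.3%, 18.9% and 0.74% on median-centred values, on quantile normalised values and by the deposited FDR. Leaving out each library in turn gave 0.15% to 8.25% higher and 0 to 0.59% lower, the highest without vehicle replicate 3. On median-centred values (an alternative chosen after seeing the data), leaving out vehicle replicates 1, 2 and 3 and LPS replicates 1, 2 and 3 in turn gave 9.72%, 10.2%, 8.54%, 6.92%, 6.48% and 10.2% higher, and 10.6%, 9.43%, 18.3%, 15.3%, 11.6% and 11.2% lower. Pseudocount 5 and a mean value of at least 20 kept both shares within 1.5 times. No share over all sites is given here for quantile normalised values or for the fits with a library left out. Those shares have no background beside them.

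Whether the replicate numbers pair the libraries could not be settled. Deviations of same-numbered libraries from their group means correlated weakly, at 0.11, 0.04 and 0.21 across sites. Between libraries of other numbers the correlations ran from -0.20 to 0.15. A library did not always correlate best with its own number: vehicle library 2 did so with LPS library 1. With the replicate number as a block, 7.51% of isolated sites were higher (all sites 10.5%) and 6.19% lower (all sites 3.5%), and with the block on median-centred values (chosen after seeing the data) 13.4% (all sites 18.7%) and 19.4% (all sites 16.6%). By replicate number, the class change with LPS was -0.07, -0.08 and -0.13, below 0 in 3 of 3 (mean -0.10; exact sign flips, p = 0.25, the smallest that 3 pairs allow).

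The mean level difference was -0.18 against other sites and -0.19 against clustered sites. With isolation over 200 kb it was -0.10 and -0.11, each below 0 in only 4 of 6 libraries (exact sign-flip p = 0.125 for each). Leaving out each library gave -0.20 to -0.14 and -0.22 to -0.15, with an exact p of 0.0625 that is the smallest 5 libraries allow. Without vehicle replicate 3 the change of the strongest site, on chromosome 2, turned from -0.10 to 0.14 (adjusted p = 0.480 by limma), and over the libraries left out in turn it ran from -0.31 to 0.14. The share within 1 kb of a start was 23.9%, 21.5% with protein-coding starts and 20.6% with RefSeq starts only (chosen after seeing the data). Of the 19 isolated sites nearest to listed genes, 0 were called on the deposited values, and 2 higher and 1 lower on median-centred values. Over all sites 1.89% were called higher on the deposited values, and 16.1% higher and 13.4% lower on median-centred values. The planned motif search in whole sites was not run. Depth was 33 to 52 reads at the median isolated site if a step is 1 read.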

Other observations

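Of the isolated sites, 22 carry no gene symbol in the deposited table. The 5 sites just inside the 100 kb threshold had log2 changes with LPS of -1.13 to 1.26 and the 5 just outside -0.18 to 0.70.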
